A study of Bombyx mori with 12 samples.

Results

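The genes described here are the cytochrome P450s of the late steps of ecdysteroid synthesis in the silkworm Bombyx mori and the P450 that inactivates the hormone: Cyp306a1 (phantom, GeneID.100127116), Cyp302a1 (disembodied, GeneID.692499), Cyp315a1 (shadow, GeneID.100127120), Cyp314a1 (shade, GeneID.100127102) and Cyp18a1 (GeneID.100036578). They were taken by gene ID, and all 5 were found among the 17583 rows of the count table and passed the filter on low counts, which left 10721 genes for testing. Of the 5, 1 gene passed the test for molting type. Over all tested genes, 38% passed in batch 2 and 45.4% in batch 1. This gene, Cyp306a1, was 0.472-fold as high in tetramolters as in trimolters in batch 2 and 3.74-fold as high in batch 1. No change of Cyp302a1, Cyp315a1, Cyp314a1 or Cyp18a1 passed the edgeR test in any comparison with all libraries in the model, and their lowest unadjusted p was 0.0518, for Cyp314a1. Low counts, 4 to 28 per library, limit the tests of Cyp302a1, Cyp315a1 and Cyp314a1.

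Ecdysteroids are the steroid hormones that set off each molt of an insect. In the prothoracic gland, the enzymes of the Halloween genes (named after Drosophila mutants) convert dietary sterol stepwise to ecdysone: phantom, disembodied and shadow each add a hydroxyl group, in that order. Shade, which acts mainly in peripheral tissues such as fat body and midgut, adds the hydroxyl group that gives the active hormone, and Cyp18a1 oxidises and so removes active ecdysteroid in target tissues.

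Poly(A) RNA of head and thorax tissue, which holds the prothoracic glands, was sequenced from larvae of the strain Guangri 3 at the molting stage of the third instar. Larvae of this strain were either trimolters, which molt 3 times, or tetramolters, which have an added molt, and all libraries share the strain, the tissue and the stage. The 12 libraries fall into 4 groups of 3, namely batch 2 tetramolters, batch 2 trimolters, batch 1 tetramolters and batch 1 trimolters, with 13449541 to 15650612 counts each. The study reared larvae in spring and, at a higher temperature, in autumn, but the labels give each library only a batch number, so season, temperature, photoperiod and sequencing cannot be told apart from batch. No label ties a library to 1 animal, so p-values measure the spread between these libraries, which may be technical in part. In bulk tissue, fewer cells of a type and less RNA per cell cannot be told apart. Summed cuticle protein genes ranged from 109000 to 125000 CPM (counts scaled to library size) in the batch 2 tetramolters, against 70300 to 77800 CPM in the batch 2 trimolters. They ranged from 53000 to 56100 CPM in the batch 1 tetramolters, against 75700 to 146000 CPM in the batch 1 trimolters, the widest range of the 4 groups.

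Cyp306a1, which acts first of the 5, was highest in the batch 1 tetramolters. It had 16.9, 19.7 and 14.3 CPM in the batch 2 tetramolters, against 38.9, 36.3 and 32.7 CPM in the batch 2 trimolters. It had 66.8, 61.9 and 64.5 CPM in the batch 1 tetramolters, against 18.4, 19.8 and 13.4 CPM in the batch 1 trimolters. The order of the groups was thus batch 1 tetramolters, batch 2 trimolters, and then batch 1 trimolters and batch 2 tetramolters, whose ranges overlap. Means were 17 ± 2.67 CPM in the batch 2 tetramolters and 36 ± 3.12 CPM in the batch 2 trimolters, and 64.4 ± 2.43 CPM in the batch 1 tetramolters and 17.2 ± 3.35 CPM in the batch 1 trimolters (SD, n = 3 each). The values rest on 206 to 979 counts per library.

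**Figure D1:**
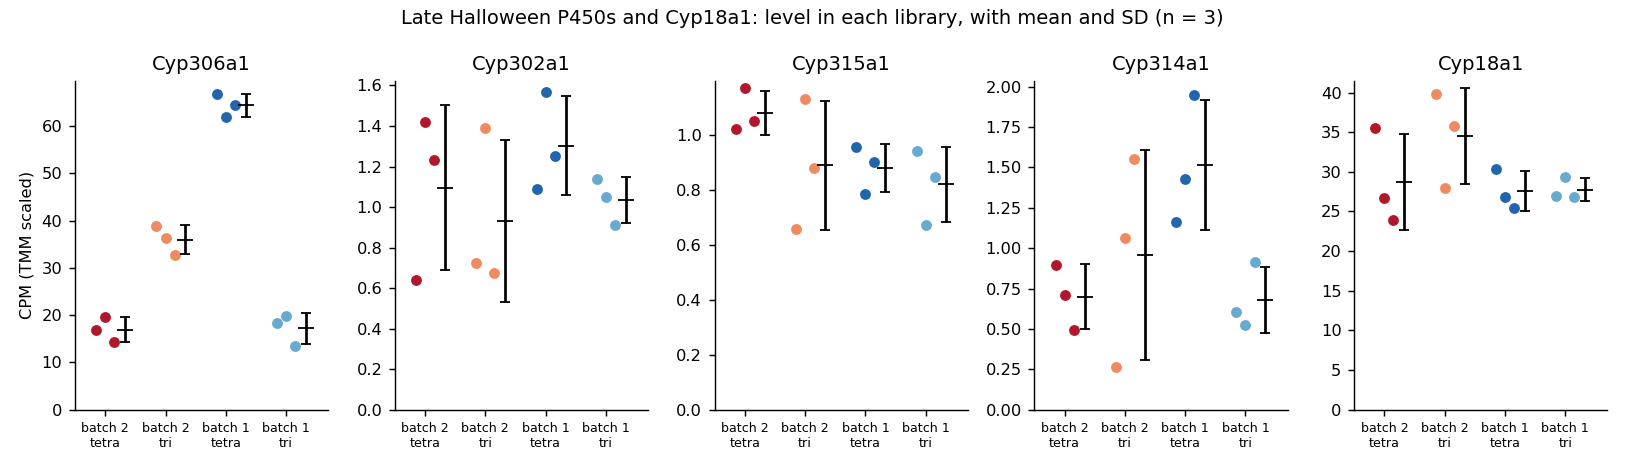
Level of each gene in each of the 12 libraries, in CPM scaled by TMM, with 1 panel and 1 vertical scale per gene; points are libraries and bars are the mean and SD (n = 3). Cyp306a1 lies between 61.9 and 66.8 CPM in the batch 1 tetramolters, above every other library, while the groups overlap for Cyp302a1 and Cyp18a1.

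In batch 2, Cyp306a1 was lower in tetramolters, with a log2 fold change of -1.08 (SE 0.15, 95% interval -1.42 to -0.75, edgeR adjusted p = 0.000361). In batch 1 it was higher in tetramolters, with a log2 fold change of 1.90 (SE 0.15, 95% interval 1.57 to 2.24, edgeR adjusted p = 1.5e-05). The test of the difference between these changes gave -2.99 log2 units, batch 2 minus batch 1 (SE 0.22, edgeR adjusted p = 3.27e-06). Cyp306a1 alone passed among the 5 genes in each of the 3 comparisons. Over all tested genes, 38% passed in batch 2, 45.4% in batch 1 and 53.8% for the difference, so 1 gene in 5 is not a high share. In batch 2 a larger change in either direction was found for 13.7% of genes, and in batch 1 for 4.58%. Over all genes, the batch 1 trimolter libraries differed most from each other and the batch 1 tetramolter libraries least. The fit nevertheless shares its spread estimate across the groups, which limits the batch 1 p-values.

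Between batches, Cyp306a1 moved in opposite directions in the molting types. It was lower in batch 2 than in batch 1 among tetramolters, at -1.92 on the log2 scale (SE 0.15, edgeR adjusted p = 3.19e-06), where it alone of the 5 genes and 58.8% of all genes passed. It was higher in batch 2 than in batch 1 among trimolters (log2 fold change 1.06, SE 0.15, edgeR adjusted p = 0.00204), where it alone of the 5 and 15.5% of all genes passed. The ranges of the trimolters of the 2 batches were apart for 1 of the 5 genes, Cyp306a1, and for 31.1% of all genes. The share of genes that passed there depends on single libraries: 1664 genes passed with all, 917, 893 and 784 without batch 2 trimolter 1, 2 and 3, and 2594, 2723 and 716 without batch 1 trimolter 1, 2 and 3. The comparisons share libraries, so their directions are not independent. Calls in both directions of molting type as for Cyp306a1, lower in batch 2 and higher in batch 1 tetramolters, were made for 1060 genes (9.89%), and the reverse for 1187 genes (11.1%). All 4 directions of Cyp306a1 were found for 355 genes (3.31%).

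Cyp302a1, the enzyme after Cyp306a1, was counted at a low level in every library, and its groups overlapped. It had 10, 22 and 20 counts in the batch 2 tetramolters, against 11, 21 and 10 counts in the batch 2 trimolters. It had 16, 22 and 18 counts in the batch 1 tetramolters, against 17, 14 and 14 counts in the batch 1 trimolters. No group stands apart in these counts. The ratio of tetramolters to trimolters was 1.18 in batch 2 (95% interval 0.645 to 2.15, edgeR adjusted p = 0.67) and 1.26 in batch 1 (95% interval 0.694 to 2.28, edgeR adjusted p = 0.511). Each interval leaves out the ratio of Cyp306a1 in the same batch. In the RefSeq annotation of assembly ASM3026992v2, Cyp302a1 overlaps LOC101738360, whose mean of 1140.6 counts per library is far above that of Cyp302a1. LOC101738360 was lower in batch 1 tetramolters (log2 fold change -1.21, edgeR adjusted p = 0.00047), and because the use of strand in counting is not given, reads of overlapping genes cannot be told apart.

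Cyp315a1, the last step to ecdysone, was as sparsely counted as Cyp302a1. It had 16, 18 and 17 counts in the batch 2 tetramolters, against 10, 17 and 13 counts in the batch 2 trimolters. It had 14, 11 and 13 counts in the batch 1 tetramolters, against 14, 9 and 13 counts in the batch 1 trimolters. The ranges in CPM did not overlap between batch 2 and batch 1 tetramolters, at 1.08 ± 0.0766 and 0.881 ± 0.0873 CPM (SD, n = 3 each), but this ratio of 1.22 did not pass (95% interval 0.755 to 1.97, edgeR adjusted p = 0.452). Such a gap was found for 71.5% of all genes in that comparison and for 3 of the 5 described here (Cyp306a1, Cyp315a1 and Cyp314a1). The ratio of tetramolters to trimolters was 1.21 in batch 2 (95% interval 0.752 to 1.96, edgeR adjusted p = 0.515) and 1.07 in batch 1 (95% interval 0.652 to 1.76, edgeR adjusted p = 0.833). The spread between libraries of a group, a coefficient of variation of 7.11% to 26.3%, was no larger than the 24.3% to 28.9% that counting alone gives at this depth. Cyp315a1 overlaps LOC101736205 and LOC101736338 in the same annotation, and the limit named for Cyp302a1 holds here too.

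Cyp314a1, which makes the active hormone outside the gland, had its highest mean, like Cyp306a1, in the batch 1 tetramolters, but no comparison passed. It had 14, 11 and 8 counts in the batch 2 tetramolters, against 4, 16 and 23 counts in the batch 2 trimolters. It had 17, 20 and 28 counts in the batch 1 tetramolters, against 9, 7 and 14 counts in the batch 1 trimolters. The ranges of the batch 1 groups did not overlap in CPM, as held for 2 of the 5 genes and 53.7% of all genes. In batch 2 the tetramolter values lay within the range of the trimolters, and 1 of the 5 genes (Cyp306a1) and 55.6% of all genes had separate ranges.

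The molting type ratio of Cyp314a1 was 0.732 in batch 2 (95% interval 0.324 to 1.66, edgeR adjusted p = 0.539) and 2.19 in batch 1 (95% interval 0.983 to 4.89, edgeR adjusted p = 0.0965). The difference of these changes was -1.58 log2 units (SE 0.76, edgeR adjusted p = 0.0932). Between batches it was 0.466-fold as high in batch 2 as in batch 1 tetramolters (edgeR adjusted p = 0.0864) and 1.39-fold as high in batch 2 as in batch 1 trimolters (edgeR adjusted p = 0.569). Batch 2 trimolter 1, with 4 counts, bears on these calls: without it the batch 1 change was 1.09 log2 units (edgeR adjusted p = 0.0429), the difference -2.01 (edgeR adjusted p = 0.0151) and the batch change in tetramolters -1.10 (edgeR adjusted p = 0.0315). The coefficient of variation of Cyp314a1 in the batch 2 trimolters, 67.9%, was the widest of the 5 genes in any group, where counting alone gives 26.4%.

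Cyp18a1, the inactivating enzyme, was well counted and nearly level. It had 35.5, 26.7 and 23.9 CPM in the batch 2 tetramolters, against 39.8, 27.9 and 35.8 CPM in the batch 2 trimolters. It had 30.4, 26.8 and 25.5 CPM in the batch 1 tetramolters, against 27.0, 29.4 and 26.8 CPM in the batch 1 trimolters. All 4 groups overlap. The ratio of tetramolters to trimolters was 0.832 in batch 2 (95% interval 0.651 to 1.07, edgeR adjusted p = 0.221) and 0.994 in batch 1 (95% interval 0.776 to 1.27, edgeR adjusted p = 0.972). The ratio of batch 2 to batch 1 was 1.04 in tetramolters (edgeR adjusted p = 0.777) and 1.24 in trimolters (95% interval 0.971 to 1.59, edgeR adjusted p = 0.204). No unadjusted p of Cyp18a1 was below 0.0787. Without batch 2 tetramolter 1 the batch 2 change was -0.45 log2 units and passed (edgeR adjusted p = 0.047). Cyp18a1 had 367 to 603 counts per library, within the 206 to 979 of Cyp306a1. In the RefSeq annotation it is the gene next to Cyp306a1.

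**Figure D2:**
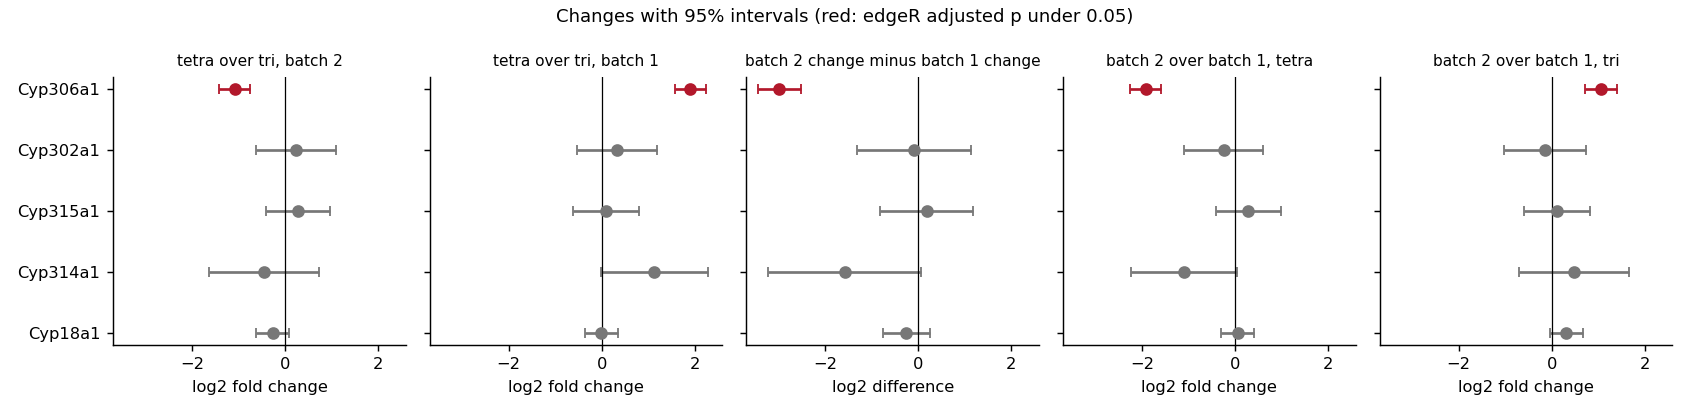
Log2 fold change of each gene (horizontal axis) with its 95% interval in the 5 comparisons, the tetramolters over trimolters in each batch, the difference of these changes, and batch 2 over batch 1 in each molting type. Red marks an edgeR adjusted p under 0.05, which Cyp306a1 reaches in all 5 panels (-1.08 in batch 2 and 1.90 in batch 1) and the other genes in none.

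Set side by side, the interval of the Cyp306a1 change lay apart from those of Cyp302a1, Cyp315a1 and Cyp18a1 in batch 2, in batch 1, for the difference and for batch in tetramolters. For batch in trimolters it lay apart from that of Cyp18a1 alone. It overlapped the wide interval of Cyp314a1 in all 5 comparisons, so the data do not separate these genes. Over the 5 genes the median log2 fold change was -0.26 in batch 2 and 0.33 in batch 1, against medians of -0.01 and 0.01 over all tested genes.

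Levels can be compared between the genes only per transcript length, which the deposited FPKM values allow in 11 libraries (the column of batch 1 trimolter 2 was empty). Cyp306a1 and Cyp18a1 were far above the other 3 genes in every library. Cyp306a1 had 9.07, 10.6 and 7.73 FPKM in the batch 2 tetramolters, against 20.8, 19.4 and 17.5 FPKM in the batch 2 trimolters. It had 34.4, 32.0 and 33.2 FPKM in the batch 1 tetramolters, against 9.69 and 7.11 FPKM in the batch 1 trimolters. Cyp18a1 ranged from 14.0 to 20.8 FPKM in the batch 2 tetramolters, 16.3 to 23.1 FPKM in the batch 2 trimolters and 14.3 to 17.1 FPKM in the batch 1 tetramolters, and had 15.4 FPKM in both batch 1 trimolters. Over the 11 libraries, Cyp302a1 lay between 0.339 and 0.799 FPKM, Cyp315a1 between 0.325 and 0.579 FPKM and Cyp314a1 between 0.124 and 0.88 FPKM. The order of these last 3 differs between libraries, so none stands above the others.

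**Figure D3:**
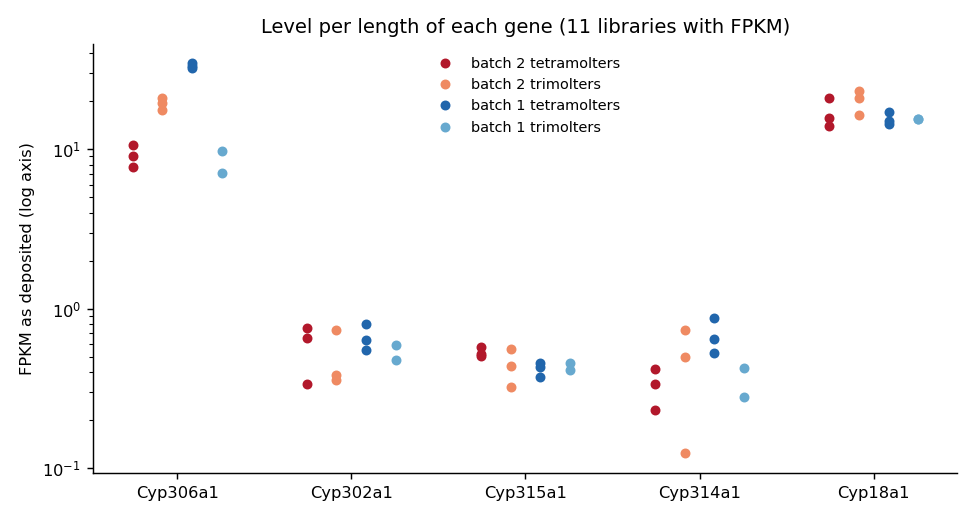
FPKM as deposited (vertical log axis) of each gene in the 11 libraries with a value, coloured by group. Cyp306a1 and Cyp18a1 lie above 7 FPKM and the other 3 genes below 1 FPKM in every library. The group means lie furthest apart for Cyp306a1, and the libraries of Cyp314a1 also spread widely, from 0.124 to 0.88 FPKM.

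The make-up of the 5 genes' summed FPKM changed with the group through Cyp306a1. Its share was 29.1% to 38.0% in the batch 2 tetramolters and 43.9% to 51.8% in the batch 2 trimolters. It was 64.9% to 67.1% in the batch 1 tetramolters and 29.8% to 36.6% in the batch 1 trimolters, while Cyp302a1, Cyp315a1 and Cyp314a1 together held 1.86% to 6.08% in any library. The FPKM of Cyp306a1 was 0.436 to 0.677 times that of Cyp18a1 in the batch 2 tetramolters and 0.838 to 1.20 times in the batch 2 trimolters. In batch 1 this ratio was 2.02 to 2.32 in tetramolters and 0.46 to 0.627 in trimolters. Cyp306a1 and Cyp18a1 thus had like FPKM in the batch 2 trimolters, and Cyp18a1 stood above Cyp306a1 in the batch 2 tetramolters and batch 1 trimolters.

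The ratio of 2 genes within a library does not depend on library size, so the steps were compared by the log2 ratio of their counts, for all 10 pairs. Cyp306a1 over Cyp18a1 was -0.75 ± 0.32 in the batch 2 tetramolters and 0.07 ± 0.27 in the batch 2 trimolters, and 1.23 ± 0.10 in the batch 1 tetramolters and -0.70 ± 0.25 in the batch 1 trimolters (log2 units, SD, n = 3 each). The tetramolter minus trimolter difference was -0.82 in batch 2 and 1.93 in batch 1, and in neither batch did the groups overlap. For Cyp306a1 over Cyp315a1 this difference was -1.39 in batch 2 and 1.81 in batch 1. For Cyp306a1 over Cyp302a1 it was -1.32 in batch 2 and 1.60 in batch 1.

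In a 2-sided exact permutation test of molting type within batches, the batch 2 minus batch 1 value of this difference had p = 0.005 for each of the 3 pairs, which is the smallest p that its 400 arrangements can give. The values were -2.75 with Cyp18a1, -3.20 with Cyp315a1 and -2.92 with Cyp302a1, each with an adjusted p of 0.05 over the 30 tests, which does not fall below the threshold of 0.05. The permutation assumes no molting type effect in either batch, so an effect in 1 batch alone could also give a small p. The 3 pairs share Cyp306a1 and are not independent. The ratio to Cyp314a1 differed by -1.72 (exact permutation p = 0.06, adjusted p = 0.42). No other of the 30 tests had an unadjusted p under 0.05, including every pair formed without Cyp306a1 and every effect averaged over the batches or the molting types. For Cyp306a1 over Cyp18a1 that average molting type difference was 0.56 (exact permutation p = 0.245, adjusted p = 0.49). Without batch 2 trimolter 1 or without batch 2 trimolter 3, 5 of the tests had an unadjusted p under 0.05 in place of 3. Within 1 batch, 3 against 3 libraries cannot give a p below 0.10.

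**Figure D4:**
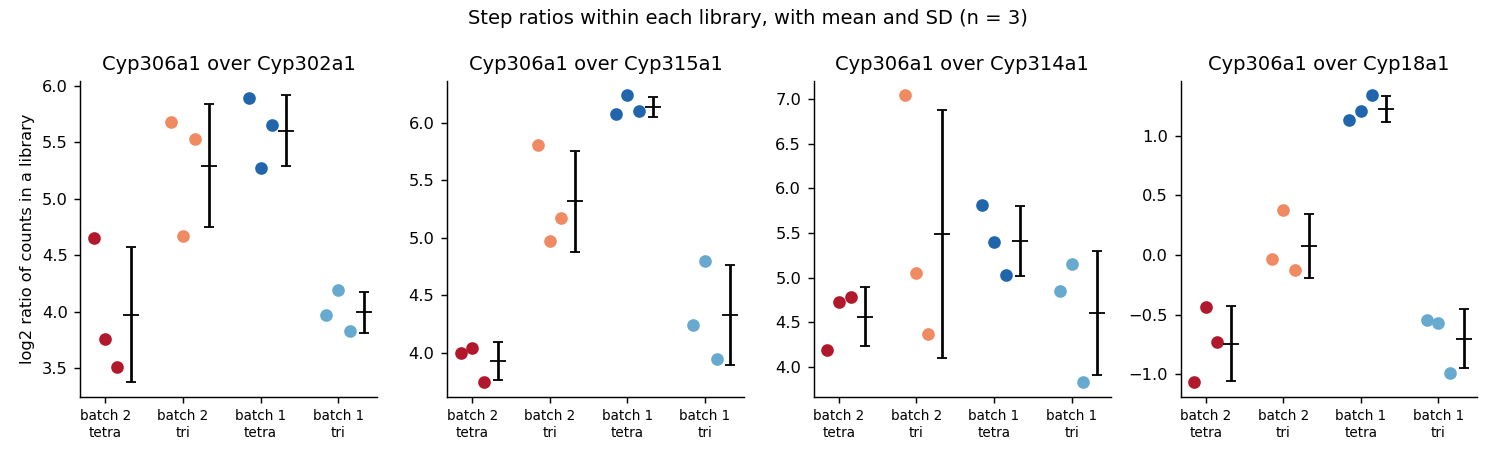
Log2 ratio of the counts of Cyp306a1 to those of each other gene within a library (vertical axis, 1 scale per panel), by group, with points for libraries and bars for the mean and SD (n = 3). The ratio to Cyp18a1 is 1.13 to 1.34 in the batch 1 tetramolters and -0.99 to -0.55 in the batch 1 trimolters, and the order of the molting types turns in batch 2.

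As a description over the 12 libraries, the log2 CPM of Cyp306a1 had a Pearson r of 0.52 with Cyp314a1, 0.25 with Cyp302a1, 0.13 with Cyp18a1 and -0.20 with Cyp315a1. The strongest r among the 10 pairs was -0.82, between Cyp302a1 and Cyp18a1, of which Cyp302a1 rests on 10 to 22 counts per library. Among 9262 genes with a mean of at least 1 log2 CPM, 505 (5.45%) had an r above 0.9 with Cyp306a1 and 408 (4.41%) had one below -0.9, whereas no gene reached 0.9 with any of the other 4. The low counts of Cyp302a1, Cyp315a1 and Cyp314a1 limit how high their r can be, and Cyp18a1 differed little between groups. The symbol-bearing genes most like Cyp306a1 were GSTo2 (r = 0.986), CLIP11 (0.979), Psf (0.976), Mod(mdg4) (0.973) and Time (0.972), with 26 genes known only by a LOC number passed over. GSTo2, a glutathione S-transferase, had 43.6 ± 3.44 CPM in the batch 2 tetramolters and 74.8 ± 3.49 CPM in the batch 2 trimolters, and 127 ± 3.66 CPM in the batch 1 tetramolters and 46.5 ± 4.63 CPM in the batch 1 trimolters (SD, n = 3 each). Among symbol-bearing genes, the highest r was 0.765 with Cyp302a1 (CDC2L1, 4 LOC genes passed over), 0.880 with Cyp315a1 (CPR9, 1 passed over), 0.774 with Cyp314a1 (DnaJ-21, 6 passed over) and 0.669 with Cyp18a1 (at1, 19 passed over). The 12 points fall into 4 groups of 3, so each r follows the group means as well as the spread within groups.

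The early steps of the pathway did not share the pattern of Cyp306a1. Of 7 listed genes of early synthesis, 2 were found: Nvd, which acts on cholesterol, and Cyp307a1 (spook), which acts after it and before Cyp306a1. Nvd had 85, 24 and 48 counts in the batch 2 tetramolters, against 4, 3 and 3 counts in the batch 2 trimolters. It had 7, 10 and 10 counts in the batch 1 tetramolters, against 7, 7 and 6 counts in the batch 1 trimolters. Nvd was higher in batch 2 tetramolters by 3.85 on the log2 scale (SE 0.55, edgeR adjusted p = 0.000239), where Cyp306a1 was lower, and its batch 1 value of 0.44 did not pass (edgeR adjusted p = 0.505). Cyp307a1 had 211, 83 and 261 counts in the batch 2 tetramolters, against 0, 1 and 1 counts in the batch 2 trimolters, and 0 to 4 counts in the batch 1 libraries. It was called in batch 2 (edgeR adjusted p = 7.1e-05), and no fold is given for so few counts. Both genes passed the filter on low counts through the batch 2 tetramolters alone, the group where they are high. Their calls there therefore restate these counts and are no separate support. Neither of the 2 listed ecdysteroid turnover genes was matched by symbol.

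Regulators and response genes of the hormone were called in part, where 38% of all tested genes passed in batch 2 and 45.4% in batch 1. The lists are too short to set apart from these shares. Of 9 listed regulators 7 were found and 5 tested. PTTH, the brain peptide that drives the gland, had 0 to 17 counts per library, and its receptor gene torso had 1 count in batch 2 tetramolter 2 and 0 in every other library, so neither was tested. In batch 2, Ftz-f1, a nuclear receptor that in Drosophila is needed for Halloween gene expression, was lower in tetramolters (-0.72, edgeR adjusted p = 0.00362) and the other 4 did not pass. In batch 1, Kr-h1 (0.68) and E75 (0.35) were higher and Br-c (-0.70) and Ftz-f1 (-0.50) were lower in tetramolters, on the log2 scale with edgeR adjusted p of 0.00444 to 0.0244. Of the 3 response genes found of 7 listed, USP, the partner of the ecdysone receptor, was lower in batch 2 tetramolters (-0.35, edgeR adjusted p = 0.0284). E74, an early ecdysone response gene, was lower in batch 1 tetramolters (-0.62, edgeR adjusted p = 0.0147). EcR, the receptor itself, had log2 fold changes of 0.28 in batch 2 and 0.07 in batch 1 and did not pass.

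Other P450 genes, a family that also serves detoxification, were called in both directions. Counted here are the 34 genes other than the 5 whose symbol begins with Cyp and a digit, Cyp307a1 among them. P450 genes under other names, such as the gene with the symbol P450, are not covered. Of the 34, 29 were tested. In batch 2, 5 were higher and 13 lower in tetramolters, where 19.7% and 18.3% of all genes were, with a median log2 fold change of -0.61. In batch 1, 10 were higher and 7 lower, where 22.7% of all genes were higher and 22.7% lower, with a median of 0.35. The directions of Cyp306a1 in both batches were shared by 8 of the 29, against 9.89% of all genes, and the reverse was found for 2. All 4 directions were shared by 3 of the 29 (CYP340A3, Cyp9a22 and Cyp9a19), against 3.31% of all genes. Cyp9a19 had 11.4 ± 1.60 CPM in the batch 2 tetramolters and 24.2 ± 0.607 CPM in the batch 2 trimolters, and 28.8 ± 1.09 CPM in the batch 1 tetramolters and 17.2 ± 1.83 CPM in the batch 1 trimolters (SD, n = 3 each). Cyp6ab5 went the other way in batch 1, at 10 ± 0.714 CPM in tetramolters and 43 ± 14.9 CPM in trimolters (log2 fold change -2.10, edgeR adjusted p = 5.33e-05).

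**Figure D5:**
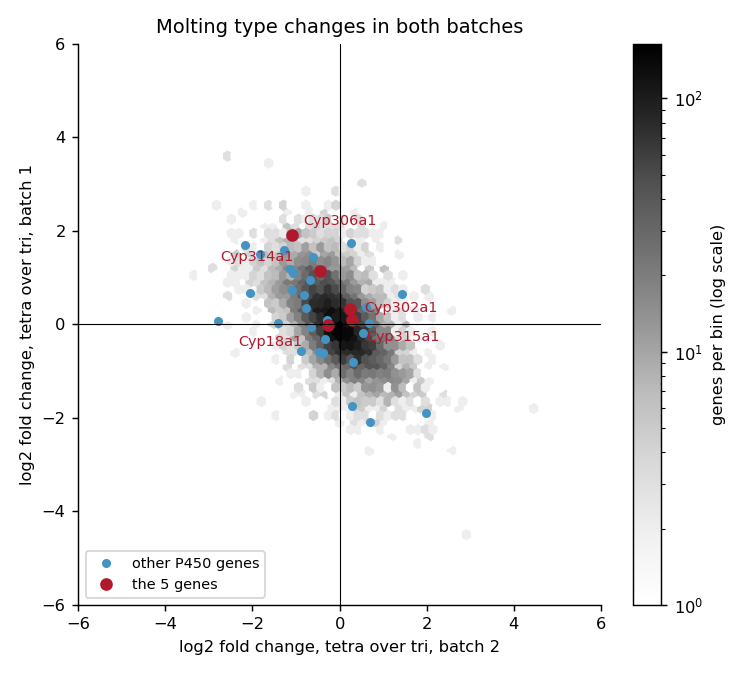
Log2 fold change of tetramolters over trimolters in batch 2 (horizontal) and batch 1 (vertical); grey bins count tested genes on a log scale, blue points are other P450 genes, red points the 5 genes, and 28 genes lie outside the axes. Cyp306a1, at -1.08 and 1.90, lies in the upper left with Cyp314a1 nearer the centre, and the other 3 lie close to 0.

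Summed genes of other tissues and of growth also differed between the groups, and their part in the result was not tested. The counts of called genes that follow stand against 19.7% of all tested genes higher and 18.3% lower in batch 2 tetramolters, and 22.7% higher and 22.7% lower in batch 1 tetramolters. Summed muscle genes had 24900 to 30800 CPM in the batch 2 tetramolters and 42500 to 52600 CPM in the batch 2 trimolters, and 57100 to 57800 CPM in the batch 1 tetramolters and 26500 to 55200 CPM in the batch 1 trimolters. Of the 6 muscle genes, 3 were lower in batch 2 tetramolters and 4 higher in batch 1 tetramolters. The 79 cytosolic ribosomal protein genes summed to 64900 to 68400 CPM in the batch 2 tetramolters and 78200 to 80900 CPM in the batch 2 trimolters, and to 118000 to 130000 CPM in the batch 1 tetramolters and 55400 to 74300 CPM in the batch 1 trimolters. Of these, 2 were higher and 9 lower in batch 2 tetramolters, below the shares of all genes, with a median log2 fold change of -0.26. In batch 1 tetramolters 76 were higher and 2 lower, with a median of 1.06. Cuticle protein genes went the opposite way to the muscle genes. Of 159 tested, 87 were higher and 8 lower in batch 2 tetramolters, and 12 were higher and 93 lower in batch 1 tetramolters.

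Of the other marker lists, read against the same shares of all genes and too short to set apart from them, the 6 midgut genes, which include genes used by other tissues, had 2 that were higher in batch 2 tetramolters and 3 that were lower in batch 1 tetramolters. They summed to 5620 to 7440 CPM in the batch 2 tetramolters and 4370 to 5090 CPM in the batch 2 trimolters, and 2550 to 2810 CPM in the batch 1 tetramolters and 2490 to 6010 CPM in the batch 1 trimolters. The 3 haemocyte genes had a median log2 fold change of -0.54 in batch 2 and 0.44 in batch 1, and none passed in either batch. They summed to 2010 to 2430 CPM in the batch 2 tetramolters and 3320 to 4100 CPM in the batch 2 trimolters. In batch 1 they summed to 1360 to 1480 CPM in tetramolters and 447 to 2210 CPM in trimolters. The 2 genes of nervous system and eye had medians of 0.87 in batch 2 and 0.75 in batch 1. Of these, 1 was higher in batch 2 tetramolters and none passed in batch 1. Of the fat body genes, from a tissue in which Cyp314a1 acts, 3 of 9 were tested: 1 was higher in batch 2 tetramolters, and 1 was higher and 1 lower in batch 1 tetramolters. They summed to 5.09 to 69.1 CPM over the libraries, with 2 or 3 of the 9 at 0 counts throughout a group. Of 5 silk gland genes 2 were tested, and 1 was higher in batch 1 tetramolters. Of the corpora allata genes, the gene with the symbol P450 (CYP15C1), of juvenile hormone synthesis, was lower in batch 2 tetramolters (-1.18 on the log2 scale, edgeR adjusted p = 0.00378), and Jhamt was too low to be tested. The defining genes of the prothoracic gland other than Cyp306a1 (Nvd, Cyp307a1, Cyp302a1, Cyp315a1 and torso) were low throughout, with the exception of Nvd and Cyp307a1 in the batch 2 tetramolters.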

How the data were processed

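The submitters' processing notes list DESeq2 1.38.3, HISAT2 2.2.1, StringTie 2.2.1 and Trimmomatic 0.39, and the labels' protocol gives an older HISAT2 version. Not given in the sources used here are the counting program, the build, the annotation and whether strand was used. Counts were deposited as whole numbers per gene, with no scaling by the authors. FPKM values were deposited as scaled by the authors for length and depth, and 1 library's empty column was not used. Rows numbered by the authors as extra loci, 511 in all with 0.21% to 0.264% of counts, were left out.

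All 12 libraries were fitted together, with 1 mean for each group, in edgeR 4.0.16 (R 4.3.3). The fit used TMM factors, filterByExpr by group and the quasi-likelihood F-test for 5 contrasts. P-values were adjusted by Benjamini-Hochberg within each contrast over 10721 genes, at a threshold of 0.05. Standard errors and 95% intervals come from the weights and moderated dispersion of the fit. Tests are 2-sided. The test scripts were checked on simulated data. Ratios of counts between genes, with 0.5 added to each count, were tested by exact permutation within strata, and the 30 p-values adjusted together. Likeness is Pearson r of log2 CPM (prior count 2). All replicate pairs differed by more than sampling noise. The chi-square per degree of freedom was 113 to 299 in the batch 1 trimolters and 3.30 to 7.74 in the batch 1 tetramolters. In both batch 2 groups it lay between 17.3 and 31.6. Reads carry no molecular identifiers, so statements on depth cover counting error only. Names of 14945 rows came from RefSeq assembly ASM3026992v2, used for names, neighbours and overlaps.

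The 5 genes, their comparisons and the gene lists (early synthesis, turnover, regulators, response, other P450 genes, tissue markers, ribosomal proteins) were chosen with earlier results of these data known. Named genes are the 5, the pathway genes found, up to 4 P450 genes per contrast by smallest p, and the 5 most alike with a symbol. Alternatives were upper quartile and RLE factors, DESeq2 1.42.0, limma 3.58.1 (voom, and trend on log2 FPKM with 1 or 0.1 added), no filter on low counts, a fit to the groups compared only, a replicate block, the numbered loci kept, and each library left out in turn.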

Additional observations from a re-analysis of the deposited data

Results flagged for a closer look

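By the interaction term of the edgeR model, the molting type change differed between batches for Cyp306a1 and for 5 pathway genes described with it. This term passed for Cyp306a1 alone of the 5 P450 genes, Nvd of 2 early synthesis genes tested and Br-c of 5 regulators tested. USP and E74 of 3 response genes passed, as did the gene with the symbol P450, the 1 corpora allata gene tested. Cyp302a1, Cyp315a1, Cyp314a1, Cyp18a1, Cyp307a1, Ftz-f1, Kr-h1, E75, Hr3 and EcR did not pass. For Cyp306a1 the difference, batch 2 minus batch 1, was -2.99 log2 units (edgeR adjusted p = 3.27e-06), with changes of -1.08 in batch 2 and 1.90 in batch 1. Its groups did not overlap in either batch, as held for 55.6% of all genes in batch 2 and 53.7% in batch 1. For Nvd the difference was 3.41 (edgeR adjusted p = 0.00226). Nvd had 24 to 85 counts in the batch 2 tetramolters and 3 to 10 counts in the other libraries. It passed the filter on low counts through that group alone, so this value is no separate support. For Br-c, a transcription factor of the ecdysone cascade, the difference was 0.71 (edgeR adjusted p = 0.0427), for USP -0.56 (edgeR adjusted p = 0.0107) and for E74 0.74 (edgeR adjusted p = 0.026). For the gene with the symbol P450, which the RefSeq table also names CYP15C1 and which acts in juvenile hormone synthesis in the corpora allata, it was -1.36 (edgeR adjusted p = 0.00677), with changes of -1.18 in batch 2 and 0.18 in batch 1. Such a difference passed for 53.8% of all genes, and these lists are too short to set apart from that share.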

How the results depend on the processing

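Cyp306a1 was called in the same direction under every alternative run, in all 5 comparisons: the log2 fold change was -1.20 to -0.98 in batch 2 (edgeR, DESeq2 or limma adjusted p at most 0.00245), 1.75 to 2.01 in batch 1 (at most 0.00135), -3.12 to -2.83 for the difference (at most 3.09e-05), -2.04 to -1.76 between batches in tetramolters and 0.91 to 1.20 in trimolters (at most 0.0414). Low counts (4 to 28 per library) limit Cyp302a1, Cyp315a1 and Cyp314a1. Log2 values of these genes and of the well counted Cyp18a1 changed sign near 0. With upper quartile factors Cyp18a1 had 0.034 in batch 1 and -0.047 between batches in tetramolters. In limma on log2 FPKM, Cyp315a1 had -0.016 (1 added) or -0.046 (0.1 added) in batch 1 and -0.012 (0.1 added) between batches in trimolters. In the fit to the groups compared only, Cyp314a1 was called between batches in tetramolters (-1.08, edgeR adjusted p = 0.0288). The number of genes called between batches in trimolters was 1664, against 2683 or 2685 in limma on FPKM (1 or 0.1 added) and 135 in the fit to these groups only. The causes were not tested. Among the ratios, Cyp306a1 over Cyp314a1 turned to -0.003 for batch with 1 added to each count and to 0.15 for molting type on FPKM, and Cyp315a1 over Cyp18a1 to -0.093 for batch on FPKM.

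With 1 library left out in turn, ranges that crossed 0 or a threshold were as follows. For molting type in batch 2, Cyp314a1 ranged from -0.91 to 0.058 and Cyp18a1 from -0.45 to -0.15. In batch 1, Cyp314a1 ranged from 0.87 to 1.40, Cyp315a1 from -0.024 to 0.18 and Cyp18a1 from -0.12 to 0.032. For the difference, Cyp314a1 ranged from -2.01 to -1.03 and Cyp302a1 from -0.32 to 0.33. Between batches in tetramolters, Cyp314a1 ranged from -1.31 to -0.88, Cyp302a1 from -0.47 to 0.031 and Cyp18a1 from -0.12 to 0.18. In trimolters, Cyp302a1 ranged from -0.57 to 0.018, Cyp315a1 from -0.11 to 0.27 and Cyp314a1 from -0.063 to 0.91, and the genes called from 716 (without batch 1 trimolter 3) to 2723 (without batch 1 trimolter 2). Of the ratio tests 3 to 5 had an unadjusted p under 0.05, with 5 without batch 2 trimolter 1 or 3. The mean molting type difference ranged from -0.028 to 0.26 for Cyp306a1 over Cyp302a1, -0.34 to 0.33 for Cyp306a1 over Cyp314a1, -0.54 to 0.089 for Cyp302a1 over Cyp314a1 and -0.038 to 0.22 for Cyp302a1 over Cyp315a1. Its batch difference ranged from -0.091 to 0.67 for Cyp302a1 over Cyp18a1 and -0.47 to 0.025 for Cyp302a1 over Cyp315a1. The mean batch difference ranged from -0.37 to 0.29 for Cyp306a1 over Cyp314a1, -0.11 to 0.52 for Cyp302a1 over Cyp314a1 and -0.15 to 0.16 for Cyp315a1 over Cyp18a1.

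The titles number the libraries 1 to 3 in each group. Deviations of same-numbered libraries from their group means correlated at -0.042 to 0.114. With 3 libraries in a group, this cannot decide whether same-numbered libraries share more than a number. With the replicate block, Cyp306a1 had -1.09 in batch 2, 1.92 in batch 1 and -3.01 for the difference, and the block changed no call of the 5 genes. It gave 4000 calls in batch 2, 4804 in batch 1, 5701 for the difference, 6219 between batches in tetramolters and 1626 in trimolters.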
